A study of Pangasianodon hypophthalmus with 14 samples.

Results

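Pigment cell genes were followed through early development of the tra catfish (*Pangasianodon hypophthalmus*), a farmed air-breathing fish. The genes were chosen by name, as the rows of the gene count table called *tyr*, *tyrp1*, *dct*, *oca2*, *mc1r*, *gpr143* or *trpm1*. Of these 7 names, 5 were rows (*tyrp1*, *dct*, *oca2*, *mc1r* and *gpr143*), among 21656 genes in all, and all 5 had enough counts to be tested. *Tyr* was reached only through a gene identifier, LOC113544601, which the RefSeq gene table of the assembly fPanHyp1.pri calls *tyr*, and its values are given beside the members without being counted among them. *Trpm1* was not analysed here.

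Whole fry were sequenced at 7 stages, every second day from 2 to 8 days post fertilization (dpf) and then daily to 11 dpf, with 2 libraries per stage. All fish were of the same species, and the labels name no difference between groups other than age, with which sampling day coincides. Sequencing lanes are not given per library in the sources used here. Each replicate was a pool of several embryos or larvae according to the study's methods, which also state that both pools contributed equal RNA to library construction. It is therefore not certain that the libraries of a stage are independent pools. The p-values measure only the spread between libraries within stages, which may be technical. That spread was estimated over all 14 libraries together, and not from the stages compared alone. Counts per library ran from 4112131 to 11609823. Counts of a gene differed between the libraries of a stage by a chi-square of between 1.13 and 1.29 per gene for the stages of 6, 9 and 11 dpf, against 3.69 to 29.6 at the other stages, where 1 is the value for sampling noise alone.

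Melanin is made inside melanosomes of the neural crest-derived melanophores of the skin and of the retinal pigment epithelium of the eye. Tyrosinase carries out the first, rate-limiting steps from tyrosine, and the related enzymes Tyrp1 and Dct act on later intermediates, while Oca2 is a melanosome membrane transporter that keeps the organelle fit for tyrosinase. Mc1r is a melanocortin receptor of the cell surface that drives melanin synthesis through cyclic AMP, and Gpr143, the human ocular albinism protein, is a receptor of the melanosome membrane that bears on melanosome number and size. In fish, other neural crest-derived cells, the yellow xanthophores and the reflecting iridophores, share part of this machinery. In whole fry, fewer pigment cells and less RNA per pigment cell cannot be told apart.

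Between 2 and 11 dpf, *tyrp1*, *oca2*, *mc1r* and *gpr143* rose, so that 4 of the 5 members passed the test in this comparison, all 4 in the same direction. With DESeq2, unscaled library totals or the close pairs of 6, 9 and 11 dpf summed to 1 library each, or without replicate 2 of 2 dpf or replicate 1 of 11 dpf, 3 of the 5 passed, *gpr143* being the one lost. For background, 20.8% of the 19310 genes tested passed it, 12.6% higher and 8.22% lower at 11 dpf. The members were chosen with earlier results of these data known, so these shares are given as a description. The test was the edgeR quasi-likelihood test on raw counts, and a gene passed when its fold change exceeded 1 on the log2 scale, in either direction, and its p after Benjamini-Hochberg adjustment was under 0.05. The median log2 fold change was 1.56 over the 5 members and -0.06 over all genes tested. The fifth member, *dct*, had a log2 fold change of 0.71, below the fold limit. Levels below are the counts of a gene relative to the library total scaled by TMM (CPM, the customary unit), and they are compared between stages and not between genes, since CPM takes no account of gene length.

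**Figure D1:**
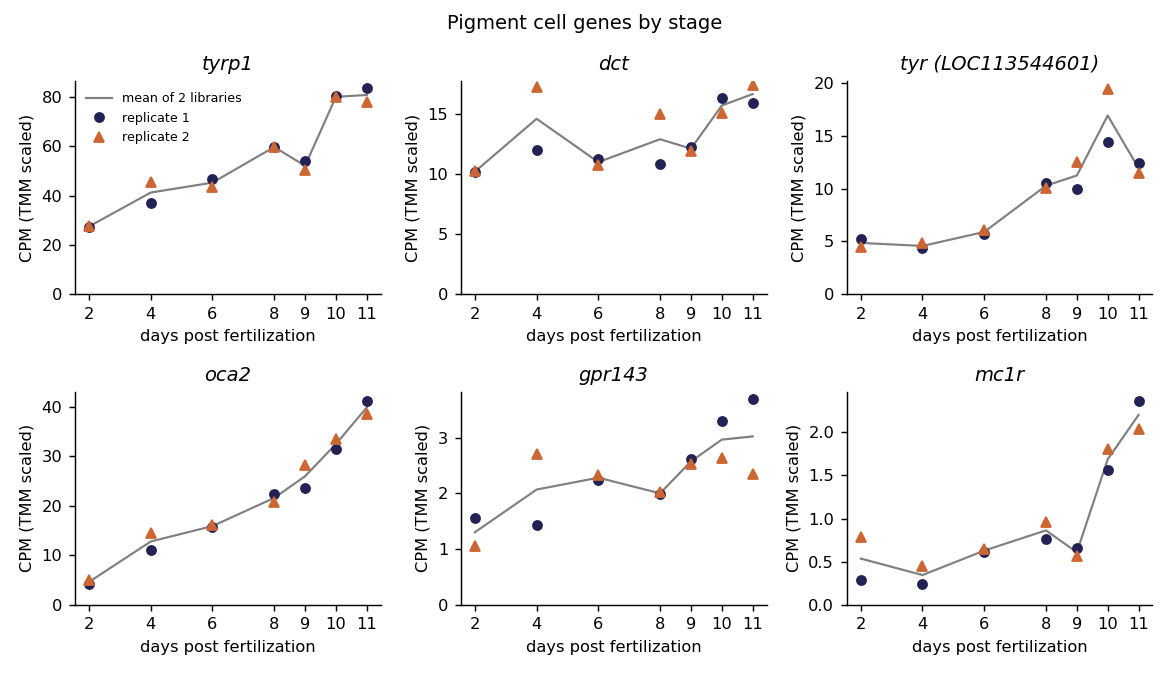
Level of the 5 pigment cell genes and of *tyr* (y axis, CPM scaled by TMM, starting at 0) against age (x axis, days post fertilization). Points are the libraries of replicate 1 and replicate 2 and the line joins the means of the 2 libraries. *Oca2* is the member whose stages do not overlap at any neighbouring pair, while the 2 libraries of 4 dpf stand apart for *gpr143* and *dct*.

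Among the tyrosinase-related enzymes, *tyrp1* was at 27.2 and 27.7 CPM at 2 dpf, 37.0 and 45.4 at 4 dpf, 46.9 and 43.6 at 6 dpf, 59.8 and 59.6 at 8 dpf, 54.0 and 50.2 at 9 dpf, 80.2 and 79.9 at 10 dpf, ending with 83.6 and 78.0 at 11 dpf. Every library after 2 dpf lay above both libraries of 2 dpf, and the 4 libraries of 10 and 11 dpf lay above all others. The rise from 2 to 11 dpf was 2.94-fold (log2 fold change 1.56, SE 0.14, n = 2 against 2, edgeR adjusted p = 1.16e-07). Ordered by mean level, the stages ran 2, 4, 6, 9, 8, 10 and 11 dpf, with 9 dpf (52.1 ± 2.66, SD, n = 2) below 8 dpf (59.7 ± 0.156). Libraries of neighbouring stages in this order overlapped for 4 and 6 dpf and for 10 and 11 dpf.

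*Dct*, dopachrome tautomerase, moved over a narrower range. Its libraries gave 10.2 and 10.3 CPM at 2 dpf, 12.002 and 17.2 at 4 dpf, 11.3 and 10.7 at 6 dpf, 10.8 and 15.0 at 8 dpf, 12.3 and 11.954 at 9 dpf, 16.3 and 15.1 at 10 dpf, ending with 16.0 and 17.4 at 11 dpf. The libraries of 4 dpf (mean 14.6 ± 3.71, SD, n = 2) and 8 dpf (12.9 ± 2.96) spread widely, and 4 of the 6 neighbouring pairs in the order of the means overlapped. The difference between 11 and 2 dpf was 1.63-fold (log2 fold change 0.71, SE 0.19, edgeR adjusted p = 0.00759), with both libraries of 11 dpf above both of 2 dpf. A difference among the 7 stages was called for *dct* (edgeR adjusted p = 0.0220), but not without replicate 2 of 6 dpf (0.0545), without replicate 2 of 11 dpf (0.0707), with library totals unscaled (0.0998) or with the close pairs summed (0.179).

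*Tyr* (LOC113544601), the tyrosinase gene of the RefSeq table, gave 5.22 and 4.48 CPM at 2 dpf, 4.32 and 4.80 at 4 dpf, 5.69 and 6.08 at 6 dpf, 10.5 and 10.0 at 8 dpf, 9.95 and 12.5 at 9 dpf, 14.4 and 19.4 at 10 dpf, ending with 12.4 and 11.5 at 11 dpf. The 6 libraries up to 6 dpf all lay below the 8 libraries from 8 dpf on, with no overlap. The rise from 2 to 11 dpf was 2.46-fold (log2 fold change 1.30, SE 0.22, edgeR adjusted p = 0.000152). Its highest stage was 10 dpf, whose mean of 16.9 CPM stood above the 11.9 CPM of 11 dpf, but this step did not pass the test (log2 fold change -0.50, edgeR adjusted p = 0.144). The paralog *tyrp1b* (LOC113544389), also named from the RefSeq table, stayed between 0.563 and 1.74 CPM, or 4 to 18 counts per library, and was not called (log2 fold change 0.78 at 11 against 2 dpf, edgeR adjusted p = 0.260). How the counting treated reads shared between *tyrp1* and *tyrp1b* is not given in the sources used here.

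The transporter gene *oca2* had the largest log2 fold change of the members. Its libraries gave 4.23 and 5.005 CPM at 2 dpf, 11.0 and 14.5 at 4 dpf, 15.7 and 16.2 at 6 dpf, 22.4 and 20.8 at 8 dpf, 23.7 and 28.3 at 9 dpf, 31.6 and 33.4 at 10 dpf, ending with 41.2 and 38.6 at 11 dpf. The order of the stages by level was their order in time, and none of the 6 neighbouring pairs of stages overlapped. The rise from 2 to 11 dpf was 8.60-fold (log2 fold change 3.10, SE 0.18, edgeR adjusted p = 7.39e-10), and leaving out any 1 library kept it between 2.99 and 3.23 on the log2 scale.

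Of the 2 receptor genes, *mc1r* was counted in few reads. It had 2 and 6 counts at 2 dpf, 1 and 3 at 4 dpf, 6 and 5 at 6 dpf, 5 and 10 at 8 dpf, 5 and 4 at 9 dpf, 9 and 11 at 10 dpf, ending with 16 and 13 at 11 dpf. In TMM-scaled CPM these were 0.240 to 0.963 in the 10 libraries up to 9 dpf and 1.56 to 2.36 in the 4 libraries of 10 and 11 dpf, with no overlap between them. In 3 of the 14 libraries the gene was at or under 3 counts, the floor used here, which is worth between 0.258 and 0.730 CPM of an unscaled library. The rise from 2 to 11 dpf was 3.96-fold (log2 fold change 1.98, SE 0.48, edgeR adjusted p = 0.00293). The pooled counts of the 2 stages, 29 and 8, gave a ratio of 4.05 with an exact 95% interval of 1.81 to 10.3, which covers counting error only. Leaving out replicate 1 of 2 dpf lowered the log2 fold change to 1.46 (edgeR adjusted p = 0.0365) and leaving out replicate 2 raised it to 2.89 (0.00336), so the size of the rise rests on which library of 2 dpf is used.

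*Gpr143* gave 1.55 and 1.05 CPM at 2 dpf, 1.44 and 2.7 at 4 dpf, 2.24 and 2.33 at 6 dpf, 1.98 and 2.02 at 8 dpf, 2.62 and 2.53 at 9 dpf, 3.30 and 2.63 at 10 dpf, ending with 3.69 and 2.35 at 11 dpf. Both libraries of 2 dpf lay under all others except replicate 1 of 4 dpf, which fell between them, and at 11 dpf replicate 2 lay below both libraries of 9 dpf. The rise from 2 to 11 dpf was 2.33-fold (log2 fold change 1.22, SE 0.39, edgeR adjusted p = 0.0181), from 19 and 40 pooled counts. It was the one member call of this comparison that a single library decided: without replicate 1 of 11 dpf the log2 fold change was 0.85 (adjusted p = 0.204) and without replicate 2 of 2 dpf it was 0.96 (0.119). DESeq2 gave 1.26 with an adjusted p of 0.0607. No difference among the 7 stages was called for *gpr143* (edgeR adjusted p = 0.113), unless replicate 2 of 4 dpf was left out (0.0427), whereas *tyrp1* (3.98e-07), *dct*, *oca2* (7.68e-09), *mc1r* (0.00218) and *tyr* (3.67e-06) were called. Of all genes tested, 75.3% were called in that test.

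Step by step, the members seldom passed. Between 2 and 4 dpf, *oca2* alone rose past the limit, 2.81-fold (log2 fold change 1.49, SE 0.21, edgeR adjusted p = 2.41e-05), 1 of 5 members where 19.8% of all genes tested passed and 13.8% were higher at 4 dpf. *Tyrp1* (log2 fold change 0.60, adjusted p = 0.00268) and *dct* (0.55, 0.0365) were past the p limit in that step and below the fold limit. From 4 dpf on, none of the 5 members was called at any step, where the share of all genes called was 11.3% from 4 to 6 dpf and 5.74% from 6 to 8 dpf. In the daily steps that followed, the share was 1.28% up to 9 dpf, 1.01% up to 10 dpf and 1.14% up to 11 dpf.

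Below the fold limit, later steps past the p limit were those of *tyrp1* from 6 to 8 dpf (log2 fold change 0.40, edgeR adjusted p = 0.0374) and from 9 to 10 dpf (0.62, 0.0187), and of *tyr* from 6 to 8 dpf (0.80, 0.0113). *Mc1r* had the largest member value from 9 to 10 dpf, 1.44 (SE 0.50), with an unadjusted p of 0.0103 and an edgeR adjusted p of 0.172. At an unadjusted p under 0.05 with the same fold limit, it would be the 1 member counted in that step. All 5 members and *tyr* had log2 fold changes above 0 from 9 to 10 dpf, between 0.20 and 1.44. The median of all genes in that step was 0.02, and 52.6% of them were above 0. In the step before, from 8 to 9 dpf, *tyrp1* (-0.20), *dct* (-0.11) and *mc1r* (-0.52) were below 0, and *oca2*, *gpr143* and *tyr* above it. Both steps share the libraries of 9 dpf. All 5 members were also above 0 from 10 to 11 dpf, with *tyr* below it. In each step from 2 to 8 dpf, 4 of the 5 members were above 0. Outside the 2 steps that share 9 dpf, between 45.8% and 50.2% of all genes were above 0 per step.

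**Figure D2:**
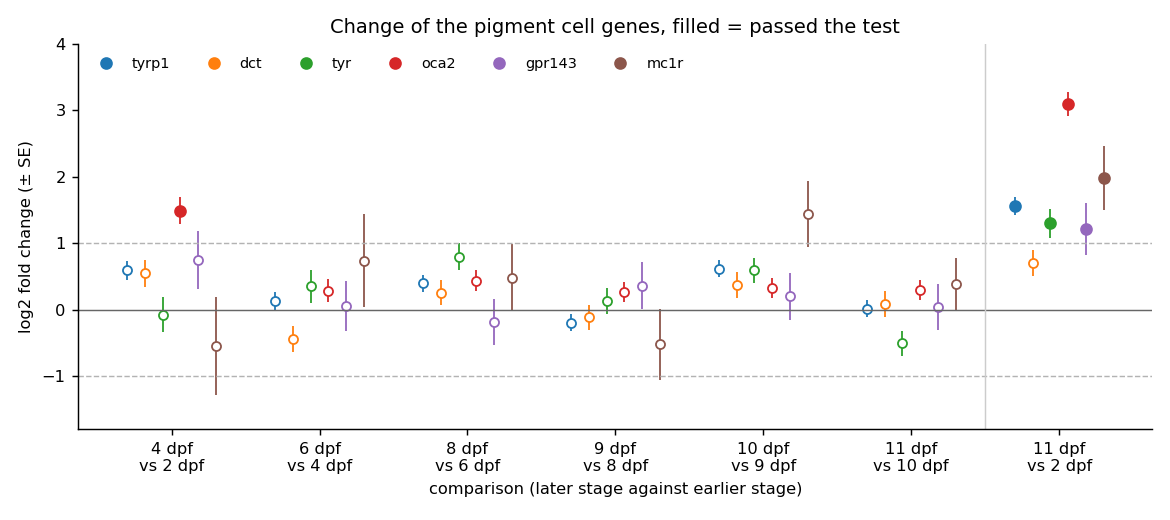
Log2 fold change of the later against the earlier stage (y axis) for the 5 pigment cell genes and *tyr* in the 6 steps and in 11 against 2 dpf (x axis). Bars are standard errors of the edgeR fit, filled points passed the test, and dashed lines mark the fold limit of 1. Over the whole span 5 of the 6 points are filled, with *dct* at 0.71 open, and among the steps only *oca2* at 4 against 2 dpf, 1.49, is.

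Stage profiles were also compared, as the root mean square (RMS) difference of log2 levels centred on each gene's own mean over the 7 stages. Levels were not scaled, so this distance takes in the size of a change as well as its time course. The closest members were *dct* and *gpr143* (0.23), followed by *tyrp1* and *gpr143* (0.25), and the farthest were *dct* and *oca2* (0.78). Genes outside the set were nearer than any other member, which the far larger number of such genes makes likely in itself. For *tyrp1* these were *tgfb1b* (0.0853) and *nefla* (0.102), for *dct* *chrm2* (0.0700) and *ca16b* (0.0902), and for *gpr143* *hk2* (0.0578), *adcy2b* (0.0747) and *gfod1* (0.0900), besides 1 gene without a symbol each for *tyrp1*, *dct*, *oca2* and *mc1r*. *Oca2* was nearest to *gja8a* (0.117) and *bhlhe41* (0.163), *mc1r* to *col6a2* (0.200) and *pou2af2* (0.211), and *tyr* to *engl* (0.128), *runx2b* (0.137) and *adamts2a* (0.141). These are the smallest of 19310 distances over 7 stage means, and are given as a description.

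Most other melanosome genes on the lists used here were not called between 2 and 11 dpf. Those that were called were all higher at 11 dpf. Of 13 tested genes of the melanosome matrix and its transporters, 4 rose and none fell, where 12.6% of all genes rose. The list median was 0.03 on the log2 scale, against -0.06 over all genes, and 8 of the 13 values were above 0. The 9 not called, named to show the make-up of the list, were *slc45a2*, *slc7a11*, *tpcn2*, *atp7a*, *clcn7*, *ctns*, *atp6ap2*, *atp6v0ca* and *atp6v1h*. Of these, *slc45a2* went from a mean of 2.57 CPM at 2 dpf to 4.56 at 11 dpf, and was highest at 10 dpf (6.57). It was the 1 gene of the list called from 9 to 10 dpf (log2 fold change 1.21, SE 0.29, edgeR adjusted p = 0.0398). In that step 1.01% of all genes tested were called. *Pmel*, which forms the fibrils on which melanin is laid down, gave 52.2 and 80.2 CPM at 2 dpf and 243 and 248 at 11 dpf (log2 fold change 1.89, SE 0.18, edgeR adjusted p = 4.24e-07), and its lowest libraries of all 14 were those of 2 dpf. *Mlana*, a melanosome protein that binds Pmel, went from 3.67 and 1.58 CPM to 12.9 and 14.3 (2.38, SE 0.31), *pmelb*, a second *pmel* gene, from 1.55 and 1.05 to 5.62 and 6.12 (2.16, SE 0.37), and *slc24a5*, a cation exchanger needed for melanin formation in zebrafish, from 2.82 and 1.32 to 6.50 and 7.06 (1.72, SE 0.32). Leaving out any 1 library changed none of these 4 calls. Their log2 fold changes lay within the range of the 4 members called, 1.22 to 3.10.

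Of 33 tested genes of melanosome biogenesis and transport, 4 rose and none fell, with a list median of -0.22. That count is near the share of all genes tested, of which 12.6% rose between 2 and 11 dpf. Values above 0 were 11 of the 33, where 46.6% of all genes were above 0. *Mreg*, known for melanosome transfer in mouse, went from 1.27 and 1.58 CPM at 2 dpf to 8.72 and 8.00 at 11 dpf (log2 fold change 2.53, SE 0.32, edgeR adjusted p = 9.14e-06). *Mlph*, which with *rab27a* ties melanosomes to a myosin motor, went from 2.54 and 2.63 to 7.24 and 6.90 CPM (1.44, SE 0.26). *Rab27a* (1.12) and *rab38* (1.08), the latter a guide of tyrosinase-family cargo to melanosomes, were nearer the limit. The *rab27a* call was lost without replicate 2 of 2 dpf (0.93), and the *rab38* call without either library of 2, 9, 10 or 11 dpf (0.89 to 1.24, adjusted p 0.0501 to 0.210).

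**Figure D3:**
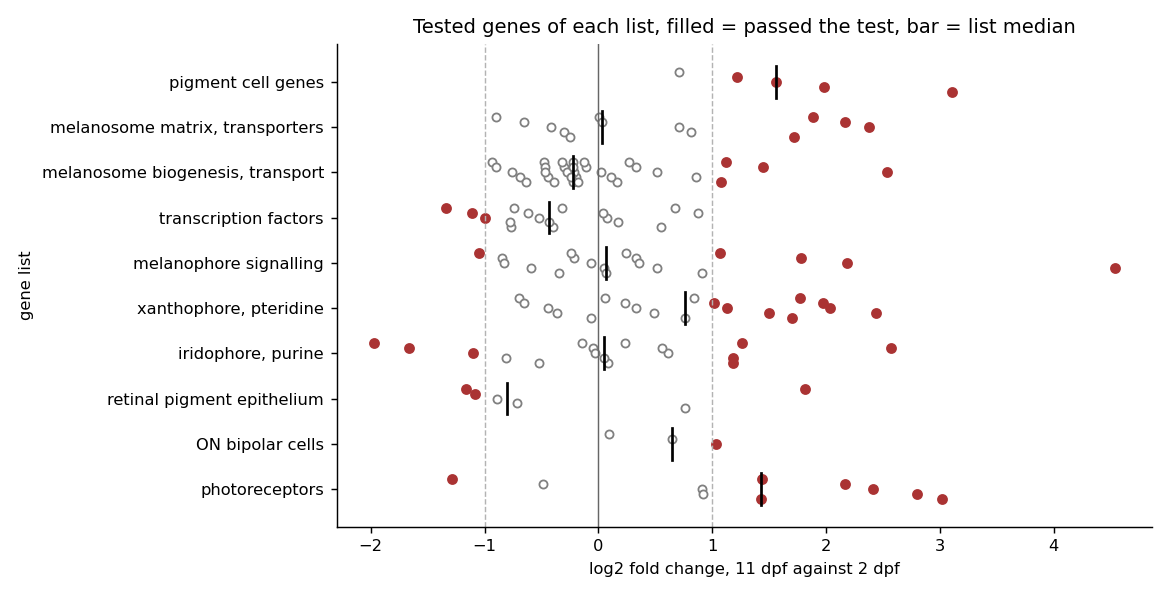
Log2 fold change of 11 against 2 dpf (x axis) for every tested gene of each list (y axis, 1 row of points per list, spread vertically for legibility). Filled points passed the test, the black bar is the list median and dashed lines mark the fold limit. The 5 pigment cell genes have a median of 1.56. The 13 melanosome matrix and transporter genes have a median of 0.03, but the 4 filled among them lie between 1.72 and 2.38. The median of the transcription factors is -0.44.

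Transcription factors of neural crest and melanophores were called only as lower over the span. Against 8.22% of all genes tested, 3 of 17 fell and none rose between 2 and 11 dpf, with a median of -0.44. These were *sox5* (log2 fold change -1.34, edgeR adjusted p = 5.54e-06), *twist1b* (-1.11, 0.00119) and *snai2* (-1.0, 0.000267), of which *sox5* is a Sox factor that modulates Sox10 activity and the others mark migrating crest and mesenchyme. *Twist1b* was lost without replicate 2 of 2 dpf (-0.94) or of 11 dpf (-0.88), and *snai2*, at the fold limit, without replicate 1 of 2 dpf (-0.82), replicate 2 of 4 dpf (-0.94) or replicate 1 of 11 dpf (-0.94). From 2 to 4 dpf, the step in which *oca2* rose, 8 of the 17 fell, where 5.99% of all genes did, and 1, *tfec*, rose (1.10, named after its values were seen), and the list median was -0.96. Of these 9 calls 6 remained without replicate 1 of 2 dpf or without replicate 2 of 4 dpf, and that of *tfec* was lost without either library of 2 dpf (1.09 and 1.11, adjusted p = 0.0799 and 0.0774) or replicate 2 of 4 dpf (0.76). Named after its values were seen, *sox10*, the factor needed for the melanophore lineage, went from 9.74 and 9.75 CPM at 2 dpf to 2.64 and 4.35 at 4 dpf (-1.41, SE 0.25, edgeR adjusted p = 0.000256), and was at 9.90 and 10.7 at 11 dpf. *Mitf*, the master regulator of melanocyte genes in mammals and also named afterwards, had 4 to 18 counts per library and was called in no step. In the next step, from 4 to 6 dpf, 14 of the 17 values were above 0, where 48.7% of all genes were. The list median in that step was 0.54.

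Of 19 tested genes of melanophore signalling, 4 rose and 1 fell between 2 and 11 dpf, where 12.6% and 8.22% of all genes did. The list median was 0.07. The one that fell, named for that reason, was *creb1*, a cyclic AMP response factor (log2 fold change -1.05), whose call was lost without replicate 2 of 4 dpf or replicate 1 of 11 dpf (-0.993 and -0.999). *Pomc*, precursor of the melanocortin ligands of Mc1r, gave 2.82 and 1.71 CPM at 2 dpf and 7.09 and 8.47 at 11 dpf (log2 fold change 1.78, SE 0.51, edgeR adjusted p = 0.00997). Its libraries of 4 dpf stood far apart, at 4.80 and 18.9 CPM, and its mean was highest at 6 dpf, 12.7 CPM. It was called as higher from 2 to 4 dpf (2.49, edgeR adjusted p = 0.000585) and as lower from 6 to 8 dpf (-1.85, 0.00544). The *pomc* call was lost without replicate 2 of 2 dpf (1.45, adjusted p = 0.0935) or of 11 dpf (1.65, 0.0609). *Mc5ra*, another melanocortin receptor gene, had 2 and 0 counts at 2 dpf and 30 and 17 at 11 dpf, a ratio of 26.3 with an exact 95% interval for counting error of 6.87 to 223. *Ednrba*, an endothelin receptor gene, went from 1.69 and 1.84 to 9.02 and 7.22 CPM (2.19, SE 0.33, edgeR adjusted p = 4.74e-05), and its ligand gene *edn3* had 1.07 (SE 0.34), lost without replicate 2 of 2 dpf (0.97) or replicate 1 of 11 dpf (0.90).

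Genes of the other pigment cells were measured beside the members. The samples were whole fry, so which cells expressed these genes was not tested. Of 19 tested xanthophore and pteridine genes, 8 rose and none fell between 2 and 11 dpf, with a median of 0.76. The other 11 were not called. Among these, named after their values were seen, were *csf1r* (mean 5.87 to 8.21 CPM), *csf1rb* (5.57 to 9.45), *pax7a* (6.40 to 4.70) and *pax7b* (7.01 to 7.31). *Csf1r* and *csf1rb* were highest at 6 dpf, with means of 22.8 and 20.6 CPM. Of all genes tested, 12.6% rose and 8.22% fell between 2 and 11 dpf. *Gch2*, the first enzyme of pteridine synthesis, went from 1.27 and 3.03 CPM to 9.02 and 8.94 (log2 fold change 2.04, SE 0.31), *bco1l*, a carotenoid oxygenase-like gene, had 2.44, *csf1a*, a ligand of the receptor that xanthophores need, 1.98, and *xdh*, xanthine dehydrogenase, 1.77. *Csf1a* was highest at 4 dpf (mean 8.8 CPM, against 3.8 at 11 dpf). *Bco1l* and *xdh* were highest at 6 dpf (means 76.6 and 88.0 CPM, against 35.9 and 58.4 at 11 dpf). Of 17 tested iridophore and purine genes, 4 rose and 3 fell, with a median of 0.05. *Pnp4a*, an iridophore marker in zebrafish, went from 1.69 and 1.98 to 11.2 and 10.8 CPM (2.57, SE 0.24, edgeR adjusted p = 3.10e-07), and *prps1a*, of purine precursor supply, had 1.26, lost without replicate 1 of 2 dpf (0.94) or replicate 2 of 11 dpf (1.11). The purine synthesis enzymes *paics* (-1.97) and *pfas* (-1.66), which dividing cells also use, fell.

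Several members are also expressed in the pigmented layer of the eye, so markers of eye cells were followed as well. The 7 markers of the retinal pigment epithelium summed to 42.2 and 57.8 CPM at 2 dpf, 83.1 and 137 at 4 dpf, 38.7 and 34.8 at 6 dpf, 19.98 and 24.4 at 8 dpf, 30.3 and 33.3 at 9 dpf, 36.1 and 24.2 at 10 dpf, ending with 36.5 and 38.1 at 11 dpf. This sum was highest at 4 dpf and lower at 11 than at 2 dpf, though its markers did not all go the same way. The sum covers the listed markers only, and whether it follows the amount of this layer was not tested. Of the 6 markers tested, *rpe65*, the retinoid isomerase of this layer (log2 fold change -1.08), and *rgra* (-1.16), a retinal opsin-like gene, fell between 2 and 11 dpf and *rlbp1* (1.82), a retinoid carrier also of Müller glia, rose. Between 2 and 11 dpf, 12.6% of all genes tested rose and 8.22% fell. All 6 markers fell from 4 to 6 dpf, a step in which 6.48% of all genes fell. Without replicate 2 of 4 dpf, 3 of these 6 calls remained. The *rpe65* call was lost without replicate 2 of 2 dpf (-0.87). *Best1* was the marker listed at 0 counts in 2 libraries, replicate 1 of 8 dpf and of 10 dpf.

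**Figure D4:**
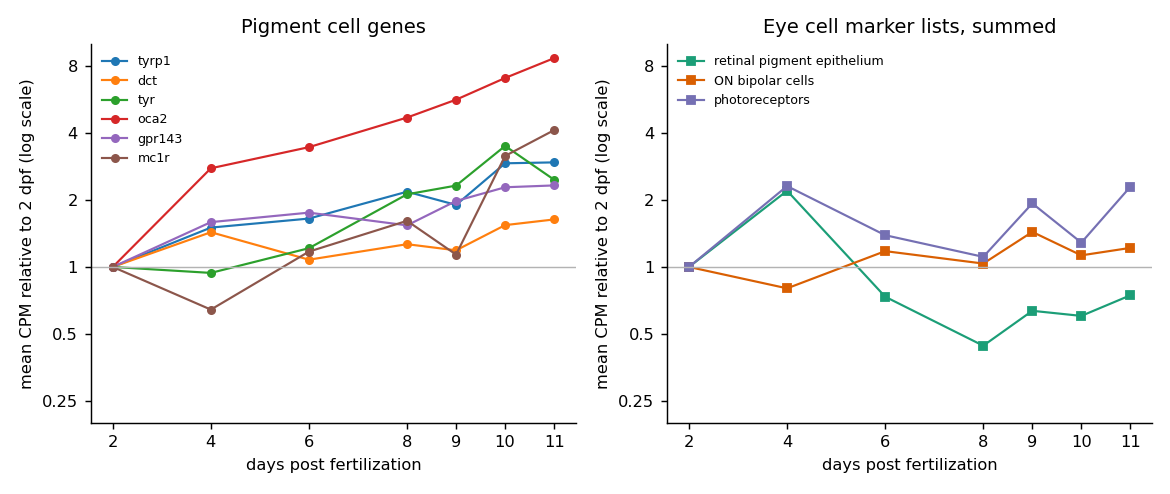
Mean level of the 2 libraries of each stage relative to 2 dpf (y axis, log scale) against age in days post fertilization (x axis), for the 5 pigment cell genes and *tyr* on the left and for summed marker lists of eye cells on the right. The retinal pigment epithelium sum peaks at 4 dpf and is below its 2 dpf level from 6 dpf on. All pigment cell genes end above their own 2 dpf level, *oca2* highest. Whether the sum follows the amount of pigment epithelium was not tested.

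The 5 markers of ON bipolar cells, the retinal neurons in which *trpm1* is known from mammals, summed to 7.20 to 16.9 CPM in the 14 libraries, and 1 of the 3 tested, the glutamate receptor gene *grm6a*, rose between 2 and 11 dpf (log2 fold change 1.04). That call was lost without replicate 2 of 2 dpf (0.78) or either library of 11 dpf (1.14 and 0.93). Of 10 photoreceptor genes tested, 6 rose, among them *gnat1* (3.02), *sagb* (2.80), *saga* (2.41) and *pde6a* (2.17), all of the light-response cascade, and 1 fell, *rho* (-1.29, named as the only one), a call lost without replicate 1 of 11 dpf (-0.77, adjusted p = 0.160). Of all genes tested, 12.6% rose and 8.22% fell between 2 and 11 dpf. Photoreceptor sums were 36.3 and 36.1 CPM at 2 dpf and 78.9 and 86.8 at 11 dpf, with 66.7 and 100.04 at 4 dpf. The part of eye cells in the members' levels was not tested.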

How the data were processed

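RNA of whole fry was depleted of ribosomal RNA and sequenced as paired ends after a kit that does not mark strand. Per the labels and the study's methods, the authors used CASAVA 1.9.1, FastQC, Trimmomatic 0.36, STAR 2.7.0 and HTSeq on the GENO_Phyp_1.0 genome, and deposited raw counts per gene, with 14 libraries in 21656 genes. As strand was not marked, antisense reads cannot be told apart. The HTSeq mode is not given in the sources used here. Counts were analysed here with edgeR 4.0.16 (R 4.3.3): filterByExpr kept 19310 genes, TMM scaled the totals, and a single quasi-likelihood fit over the 14 libraries served 6 adjacent comparisons, 11 against 2 dpf, and a test of any difference among stages (adjusted p under 0.05). Standard errors are the log2 fold change over the square root of F. The methods test with DESeq2; DESeq2 1.42.0 was an alternative here.

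Members and lists were chosen with earlier results of these data known. Named were all members and paralogs, up to 4 called genes per list with the largest change from 2 to 11 dpf, and the 3 nearest profiles per member, those without a symbol only counted. Of 11307 LOC identifiers 10538 were in the RefSeq table (fPanHyp1.pri) and 6917 had a symbol there. In that table no gene span overlapped those of *dct*, *oca2*, *mc1r*, *gpr143*, *tyr* or *tyrp1b*; *tyrp1* was not checked. No coordinates are printed and no sequences were used. The 3 count floor and intervals cover counting error only. Scripts were tested on simulated data. Figures used Python 3.11.15 and matplotlib 3.10.9.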

Additional observations from a re-analysis of the deposited data

How the results depend on the processing

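*Tyrp1*, *oca2*, *mc1r* and *tyr* kept their direction and call in 11 against 2 dpf under each alternative that gave them a value, and *dct* stayed under the fold limit. The adjusted p-values of *tyrp1* and *oca2* varied widely between these alternatives, so their size rests on the fit used. The libraries of 2 dpf differed by a chi-square of 18.7 per gene, against 1.29 at 11 dpf. Log2 fold changes with 1 library left out ran from 1.51 to 1.62 for *tyrp1*, 0.64 to 0.77 for *dct*, 1.46 to 2.89 for *mc1r*, 1.19 to 1.41 for *tyr* and 0.46 to 1.17 for *tyrp1b*. *Gpr143* ran from 0.85 to 1.51 and was also lost with DESeq2 (1.26), unscaled library totals (0.94) and the pairs of 6, 9 and 11 dpf summed to 1 library each (1.23). A filter of at least 10 counts in every library removed *mc1r* and *gpr143*. Low counts limit both genes. In the same comparison DESeq2 also lost the list genes *snai2* (-0.96), *rab38* (1.125), *edn3* (1.11), *grm6a* (1.08) and *rho* (-1.25).

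Counts of genes called changed by over 1.5 times mainly in the late steps. At an unadjusted p they were 527 (9 against 8 dpf), 486 (10 against 9 dpf) and 529 (11 against 10 dpf), in place of 247, 195 and 221, and fits of 4 libraries gave 403, 300.0 and 369. Summing the pairs gave 11, 37 and 1, with 377 for 8 against 6 dpf in place of 1108 and 9467 in place of 14541 for any difference. The filter of 10 counts gave 733 genes from 6 to 8 dpf, 128 from 9 to 10 dpf and 2675 from 2 to 11 dpf in place of 4025. With 1 library left out the counts ran from 48 to 381, from 79 to 296 and from 61 to 330.0 in the 3 late steps. Summing uses fewer samples and the filter fewer genes, and the other causes were not tested.

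Unscaled library totals moved the median of all genes from -0.06 to -0.34 in 11 against 2 dpf, from 0.00 to -0.25 in 4 against 2 dpf and from -0.05 to -0.26 in 8 against 6 dpf. The higher and lower calls became 1808 and 2946 (TMM 2438 and 1587), 1938 and 2360 (2660 and 1156) and 295 and 1132 (583 and 525), those from 4 to 6 dpf 1133 and 1033 (929 and 1252), and in the late steps 179 and 94 (89 and 158), 114 and 71 (153 and 42) and 186 and 54 (135 and 86), with 37 and 137 by DESeq2 for 9 against 8 dpf. Under those totals the members' values in 11 against 2 dpf were 1.28 (*tyrp1*), 0.43 (*dct*), 2.83 (*oca2*), 1.71 (*mc1r*) and 0.94 (*gpr143*).

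Replicate numbers did not pair the libraries: 0 of 21 correlations between stages were over 0.1 (-0.16 to 0.06). A replicate block gave 4006 calls in 11 against 2 dpf and changed no member call (1.56 for *tyrp1*, 0.71 for *dct*, 3.11 for *oca2*, 2.00 for *mc1r*, 1.21 for *gpr143*).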
